A study of Mus musculus with 2 samples.

Results

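A set of 8 genes of mouse neutrophils was followed across the cells of 2 pancreatic tumours. They were Stfa2, Stfa2l1, Stfa3 and Cstdc4, which belong to the stefin family, the whey acidic protein genes Wfdc21 and Wfdc17, the surface protein gene Cd177 and the carbonic anhydrase gene Car4. They were chosen by their measured values in these same cells, as genes high in neutrophils, out of the 32285 genes of the deposited count tables. Their presence in neutrophils and their detection together there are therefore a description here and not a result. All 8 symbols matched 1 row each of those tables.

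The tumours were orthotopic allografts grown in the mouse pancreas from KPC cells, a mouse pancreatic cancer line. One tumour came from cells with a control vector (KPC-shV) and the other from cells with a hairpin against Zeb1 (KPC-shZEB1), and the study describes both mice as treated with gemcitabine. The labels name the injected cells and the tissue but neither the strain nor the age of the hosts. Each group was 1 tumour and 1 library of single-cell RNA sequencing (10x Genomics 3' chemistry), so no test between the groups was possible. Every interval below covers counting error only, and differences between mice, tumours, libraries and groups cannot be told apart.

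Stefins are small proteins of the cystatin superfamily that stay inside the cell and block papain-like cysteine proteases, among them the lysosomal cathepsins. The mouse genome holds a run of neighbouring stefin A genes, and several of them are used mainly by myeloid cells. Whey acidic protein genes encode small secreted proteins with a disulfide-rich core, and their best known member, Slpi, blocks the serine proteases of neutrophils. Cd177 encodes a lipid-anchored protein of the neutrophil surface that binds Pecam1 and sits beside the integrin of Itgam and Itgb2. Car4 encodes a lipid-anchored enzyme that interconverts carbon dioxide and bicarbonate outside the cell.

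The 4 stefin members lay close together on chromosome 16 (GRCm38, GENCODE annotation). Stfa2l1 (ENSMUSG00000059657) spanned bases 36156811 to 36161953 and Cstdc4 (ENSMUSG00000079597) bases 36184212 to 36188111, both on the plus strand. Stfa2 (ENSMUSG00000022902) spanned bases 36403992 to 36408457 and Stfa3 (ENSMUSG00000054905) bases 36450537 to 36455392, both on the minus strand. Each had 3 exons, and 10 named genes of the family lay within 335447 bases. Wfdc17 (ENSMUSG00000069792, bases 83703991 to 83706268) and Wfdc21 (ENSMUSG00000051748, bases 83746940 to 83752642) were near neighbours on chromosome 11, with 40671 bases between them. Car4 (ENSMUSG00000000805) lay further along chromosome 11, at bases 84957786 to 84966044, and Cd177 (ENSMUSG00000052212) on chromosome 7, at bases 24743983 to 24760311.

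The stefin members also resembled each other just before their transcription starts. The promoter table (RefSeq, GRCm38.p6) held 7 of the 8 genes, all but Wfdc21. Over the 120 bases before the start, the 6 pairs of stefin members were 76.6% to 83.1% identical, against 40.0% to 51.2% in the other 15 pairs of members with an entry. The 3 stefin promoters whose starts were the same in both annotations are shown. Of these genes, Stfa2l1 and Cstdc4 are compared below for expression in the same cells. Capitals mark GAGGAGGAG and TTTAAAA.
Stfa2l1, chr16:36156691-36156810, plus strand: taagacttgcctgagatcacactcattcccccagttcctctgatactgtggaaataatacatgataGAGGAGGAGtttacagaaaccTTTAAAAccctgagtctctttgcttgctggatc
Cstdc4, chr16:36184092-36184211, plus strand: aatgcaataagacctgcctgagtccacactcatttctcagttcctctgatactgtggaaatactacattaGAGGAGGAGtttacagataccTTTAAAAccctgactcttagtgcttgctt
Stfa3, chr16:36455393-36455512, minus strand: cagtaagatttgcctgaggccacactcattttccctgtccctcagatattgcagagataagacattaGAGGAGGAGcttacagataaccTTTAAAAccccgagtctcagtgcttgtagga

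All 4 stefin members, Stfa2 included, held both words, with 21 or 22 bases from the first letter of GAGGAGGAG to the first letter of TTTAAAA. The latter word began 29 to 33 bases before the start in these 4 genes. Of 32817 promoter windows of the same length, 1.66% held GAGGAGGAG on either strand, 3.26% held TTTAAAA, and 16 windows (0.0488%) held both. Stfa1 and Cstdc5, neighbours that are not members, held both as well. Of the other neighbours searched, Csta3 held only TTTAAAA, 77 bases before the start, and Csta1 and Csta2 held neither word. Among the other members, Car4 held GAGGAGGAG and neither Wfdc17 nor Cd177 held either word. Further words were searched on both strands: GAGGAAG was in 5.52% of all windows, TTNNGNAA in 18% and TATAAA in 6.35%. The first of these was in the Wfdc17 window and the last in the Cd177 window, while TTNNGNAA was in those of Wfdc17, Cd177, Stfa2 and Stfa2l1. These words were picked with the sequences in view, and a match says only that the letters are there.

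The likeness of the stefin genes limits what reads can separate. In Cstdc4, 15.4% of all 90-base stretches of the transcript also occurred in another annotated gene, 2010005H15Rik. That name is taken here as an older one of Csta2, a neighbouring stefin, because Cstdc4 and Csta2 each had 50 shared stretches. The share was 2.09% in Stfa2 and 2.42% in Stfa2l1, which shared stretches with each other, and 0 in Stfa3, Wfdc21, Wfdc17 and Car4. In Cd177, 2.63% of the stretches, but 23% of those in the last 300, also occurred in BC049730 or Gm4763. A read from such a stretch has more than 1 matching gene, so the levels of Cstdc4 and Cd177 are uncertain to that extent.

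After filters on genes, UMIs (unique molecular identifiers, each counting 1 captured RNA molecule), mitochondrial share and doublets, 11398 cells with 101201508 UMIs were left in KPC-shV and 12104 cells with 118943000 UMIs in KPC-shZEB1. The libraries shared 36 barcodes among these cells. Zeb1 itself was not lower where the label says it was targeted: tumour-like cells held 129.5 CPM (the UMIs of a gene per 1000000 UMIs of the cells named) in KPC-shV and 157.5 CPM (interval 152 to 163) in KPC-shZEB1. Over all cells kept, Zeb1 stood at 203.9 CPM in KPC-shV and 284.4 CPM in KPC-shZEB1, so the difference was not particular to tumour-like cells. Clusters left unnamed are not part of the tumour-like cells. The study gives its own measure of the Zeb1 knockdown in the KPC cells and Zeb1 staining of tumour tissue. UMI counts do not measure the protein. The knockdown is therefore not judged here, and the tumour is called by its label only. Neutrophils were cells in which S100a8, S100a9 and Csf3r, 3 genes typical of neutrophils, made up at least 0.4% of the UMIs. This gave 5689 neutrophils in KPC-shV and 2928 in KPC-shZEB1, with median depths of 3220 and 2960 UMIs.

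Independent clusters, made without the 8 genes, bore this choice out only in part. Of the neutrophils, 98.0% and 98.7% fell in granulocyte-like clusters, an overlap that is partly built in. Those clusters held 6870 and 4571 cells, of which the marker share kept 81.2% in KPC-shV but 63.3% in KPC-shZEB1. Within the neutrophils S100a8 stood at 9912 and 6922 CPM, S100a9 at 16720 and 13670 CPM and Csf3r at 988 and 971 CPM. Results are therefore given for the marker share and, where they differ, for the clusters. Around the limit, the 8 genes summed to 2147 CPM in the 318 KPC-shV cells with a marker share of 0.3% to 0.4% and to 2628 CPM in the 318 cells with 0.4% to 0.5%. In KPC-shZEB1 the same sums were 1168 and 1264 CPM.

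Wfdc17 was the most abundant of the 8 genes and the one least restricted to neutrophils. Neutrophils held 1815 CPM of it in KPC-shV and 1218 CPM in KPC-shZEB1. Monocyte-macrophage-like cells held 940 and 736 CPM, or 52.4% and 74.6% of the granulocyte-like level. Levels were not even among them. The cluster led by F13a1, Bmp2 and Fcna, genes of resident-type macrophages, held 1728 and 1374 CPM, the latter above the granulocyte-like level of 987 CPM in the same library. The cluster led by Mmp12 and Dcstamp held 813 and 645 CPM, and the cluster led by Chil3 and Ccr2, genes of blood-derived monocytes, held 598 and 422 CPM. Dendritic-like cells followed with 300 and 238 CPM. In T-like cells the level was 129 and 113 CPM, in tumour-like cells 134 and 98.5 CPM.

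The other 7 genes were near a common low floor in the larger classes outside granulocyte-like cells. Cstdc4, the most abundant stefin, was at 1233 and 650 CPM in neutrophils, at 49.4 and 13.8 CPM in monocyte-macrophage-like cells and at 40.7 and 10.5 CPM in tumour-like cells. Stfa2l1 was at 447 and 332 CPM in neutrophils against 13.3 and 4.94 CPM in tumour-like cells. Wfdc21 was at 326 and 144 CPM against 11.1 and 2.49 CPM, and among the other large classes it was highest in the monocyte-like cluster led by Chil3 and Ccr2, at 50.9 and 11.8 CPM. Car4 was at 183 and 77.7 CPM in neutrophils against 6.86 and 2.01 CPM in tumour-like cells, and endothelial-like cells held 20.3 and 12.7 CPM of it. Cd177 was at 94.3 and 98.7 CPM in neutrophils against 4.23 and 2.44 CPM in tumour-like cells. Stfa2 was at 18.9 and 17.5 CPM, and Stfa3 at 3.28 and 1.95 CPM, from 70 and 19 UMIs.

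**Figure D1:**
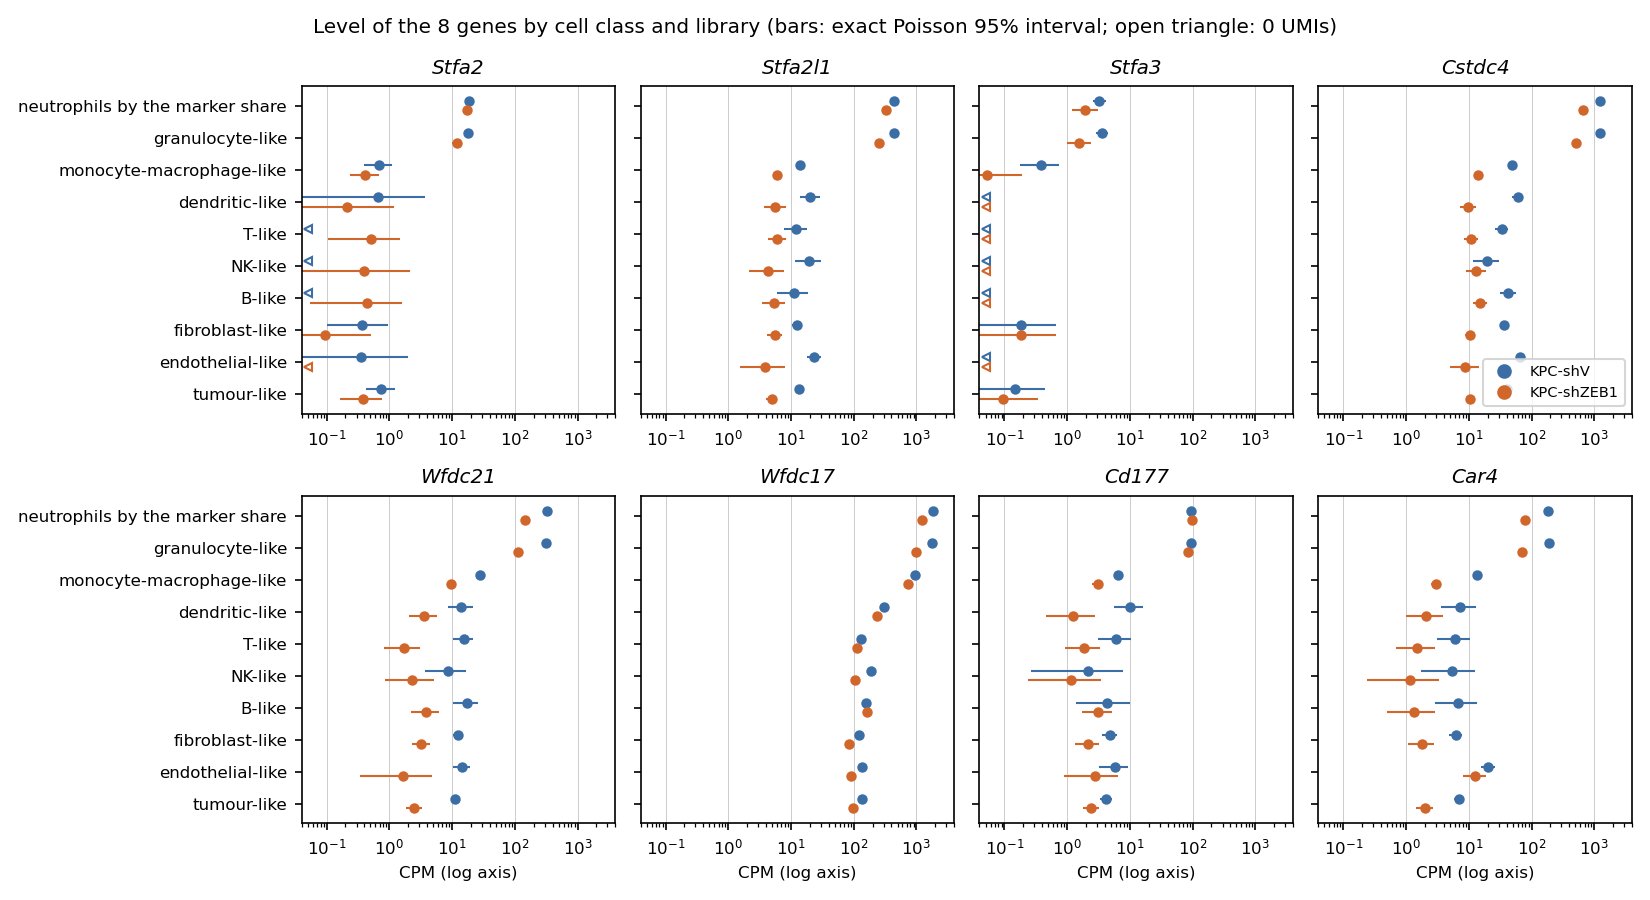
Level of each gene (CPM, log axis) by cell class, in KPC-shV (blue) and KPC-shZEB1 (orange), with exact Poisson 95% intervals as bars and open triangles for classes with 0 UMIs. Wfdc17 stays high in monocyte-macrophage-like cells (940 and 736 CPM), while Cstdc4 drops from 1233 and 650 CPM in neutrophils to 40.7 and 10.5 CPM in tumour-like cells.

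Shares of cells with a UMI gave the same order once depth was made equal. Before thinning, 54.2% of KPC-shV neutrophils and 42.2% of tumour-like cells held a Cstdc4 UMI, at median depths of 3220 and 18364 UMIs. After each cell was thinned to 1000 UMIs the shares were 38.8% and 5.05%. For Wfdc17 the thinned shares in KPC-shV were 57.8% in neutrophils, 44.1% in monocyte-macrophage-like cells and 7.24% in T-like cells. The source of the UMIs in tumour-like and T-like cells, whether made there or free RNA, was not tested. In KPC-shZEB1 the thinned Cstdc4 shares were 24.7% in neutrophils and 1.09% in tumour-like cells.

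Neutrophils carried 68.2% of all UMIs of the 8 genes in KPC-shV and 36.7% in KPC-shZEB1, while they carried 21.1% and 8.17% of the UMIs of all genes. The share was highest for Stfa2, at 89.0% and 85%, and for Stfa2l1, at 86.8% and 78.5%. It was lowest for Wfdc17, at 55.3% and 23.9%. The share carried by neutrophils moves with the number of neutrophils in each library as well as with the level per cell.

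Between the libraries, 3 genes stood out as lower in KPC-shZEB1 neutrophils and Cd177 did not. Car4 had 183 CPM in KPC-shV and 77.7 CPM in KPC-shZEB1, a ratio of 0.425 (interval 0.392 to 0.459). Wfdc21 had 326 and 144 CPM, a ratio of 0.442 (0.417 to 0.468). Cstdc4 had 1233 and 650 CPM, a ratio of 0.528 (0.513 to 0.542). These are differences between 2 tumours, larger than counting error, with no replicate check. They were not particular to neutrophils. In tumour-like cells, where levels were low, the ratios were 0.293 for Car4, 0.224 for Wfdc21, 0.259 for Cstdc4 and 0.578 for Cd177.

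The fold that counted as a difference was 1.5. Of 2836 genes with at least 50 CPM in neutrophils (mean of both libraries), 2.47% were lower by that fold in KPC-shZEB1 and 5.36% were higher. Of the 8 members 6 reached 50 CPM, and 3 of those 6 were lower and 0 higher. Car4 and Wfdc21 had the lowest and second lowest ratios of the 2836 genes, and Cstdc4 ranked 11th from the lowest. Because the genes were chosen with these values known, the ranks describe the choice and support nothing further. The median log2 ratio was -0.75 over the 6 members and 0.03 over all 2836 genes.

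The other members lay closer to 1. Wfdc17 had a ratio of 0.671 (0.657 to 0.685), just short of the fold. Stfa2l1 had a ratio of 0.744 (0.714 to 0.774). Stfa2, at 403 and 170 UMIs, had a ratio of 0.927 with an interval of 0.771 to 1.11. The top 1% of neutrophils held 79% and 88% of its UMIs. Without those cells its log2 ratio went from -0.10 to -0.63, so the ratio of Stfa2 rests on few cells. The interval does not cover that. Stfa3 had a ratio of 0.597 with an interval of 0.339 to 1.00, and 1 KPC-shV cell held 18 of its 70 UMIs there. Stfa3 was thus past the fold on 19 UMIs in KPC-shZEB1, and counting error reaches from below 0.5 to no difference. The fold is counted on ratios of CPM with nothing added. With 1 CPM added to both levels, as for the median log2 ratio above, Stfa3 stood at -0.53 and was short of it, so that 3 members in place of 4 of 8 were lower. Cd177 had a ratio of 1.05 (0.968 to 1.13).

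The definition of neutrophils mattered for these ratios. With granulocyte-like clusters in place of the marker share, 7 of the 8 members were lower by the fold, or 6 with 1 CPM added, which left Stfa2 out at -0.57. The share of all genes lower by the fold was not counted in these clusters, so the counts have no background beside them. Cstdc4 then stood at 0.419, Wfdc21 at 0.358, Car4 at 0.381, Wfdc17 at 0.551, Stfa2l1 at 0.574 and Stfa2 at 0.654. Cd177 turned from 1.05 to 0.901, so no direction is given for it. Granulocyte-like cells below the marker share held less of every one of the 6 more abundant genes, for example 527 and 185 CPM of Cstdc4 and 50.1 and 49.6 CPM of Cd177.

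Markers of other cells within the neutrophils differed between the libraries. Of 19 marker lists for other cell classes, the 8 monocyte-macrophage markers summed to 551 CPM in KPC-shV and 1071 CPM in KPC-shZEB1, and the 6 acinar markers to 97.5 and 514 CPM. The 6 fibroblast markers summed to 988 and 1012 CPM and the 7 tumour markers to 564 and 578 CPM. Over the 19 lists the sums ran from 0.421 to 988 CPM in KPC-shV and from 0.206 to 1071 CPM in KPC-shZEB1. The basophil and mast cell marker Ms4a2 and the eosinophil marker Epx were at 0 in both. The part of these transcripts in the ratios was not tested, except that without the sub-cluster led by acinar transcripts 5 members were lower by the fold in place of 4 of 8. Subtracting the tumour-like level of each library from each gene also gave 5.

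The genes had different places among the granulocyte-like cells. Granulocyte-like cells were split into 10 sub-clusters without the 8 genes, and 8 of these had at least 100 cells in each library. Wfdc17 was highest in the sub-cluster led by Camp and Ngp, genes of granules made late in neutrophil maturation, at 3249 CPM in KPC-shV and 2130 CPM in KPC-shZEB1. Stfa2l1 was also high there, at 621 and 617 CPM. Car4 was at its lowest in those cells, at 18.1 and 11.9 CPM.

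Car4 was highest in KPC-shV in the sub-cluster led by Dusp2, Gpr84 and Acp5, at 345 CPM, where Wfdc17 was at 799 CPM. In KPC-shZEB1 its level there was 98.1 CPM, near the 109 CPM of the sub-cluster led by Gpr171 and Nr4a2 and the 108 CPM of the one led by Slc24a3, Cxcl3 and Fpr1. The sub-cluster led by Slc24a3, Cxcl3 and Fpr1 was also the highest for Cstdc4 (2046 and 1387 CPM), Wfdc21 (443 and 225 CPM) and Cd177 (185 and 180 CPM). Fpr1 encodes a receptor for bacterial peptides and Cxcl3 a chemokine for neutrophils. The sub-cluster led by Gpr171 and Nr4a2 was the lowest for Cstdc4 (271 and 249 CPM) and Wfdc17 (308 and 232 CPM). Cd177 was lowest in the sub-cluster led by Atp6v0d2 and Gpnmb, at 24.0 and 6.54 CPM.

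Within sub-clusters the library difference kept its direction for 5 genes. Stfa2l1, Cstdc4, Wfdc21, Wfdc17 and Car4 were lower in KPC-shZEB1 in 8 of 8 sub-clusters. The interval lay below 1 in 8 of 8 for Wfdc17 and in 7 of 8 for each of the others. How many of all genes were lower in every sub-cluster was not counted. The ratios ran from 0.312 to 0.783 for Wfdc21, from 0.125 to 0.660 for Car4, from 0.347 to 0.918 for Cstdc4 and from 0.568 to 0.752 for Wfdc17. For Stfa2l1 they ran from 0.388 to 0.994, the latter in the Camp and Ngp sub-cluster. Cd177 was lower in 6 of 8, with ratios from 0.273 to 1.23. The sub-clusters were filled unequally, for example with 1899 and 490 cells in the one led by Hspa1b, Fnip2 and Ero1l. With equal weights in both libraries, the ratios over these 8 sub-clusters were 0.355 for Car4, 0.442 for Wfdc21, 0.593 for Cstdc4 and 0.660 for Wfdc17. They were 0.765 for Stfa2l1, 0.815 for Cd177, 0.645 for Stfa2 and 0.539 for Stfa3.

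**Figure D2:**
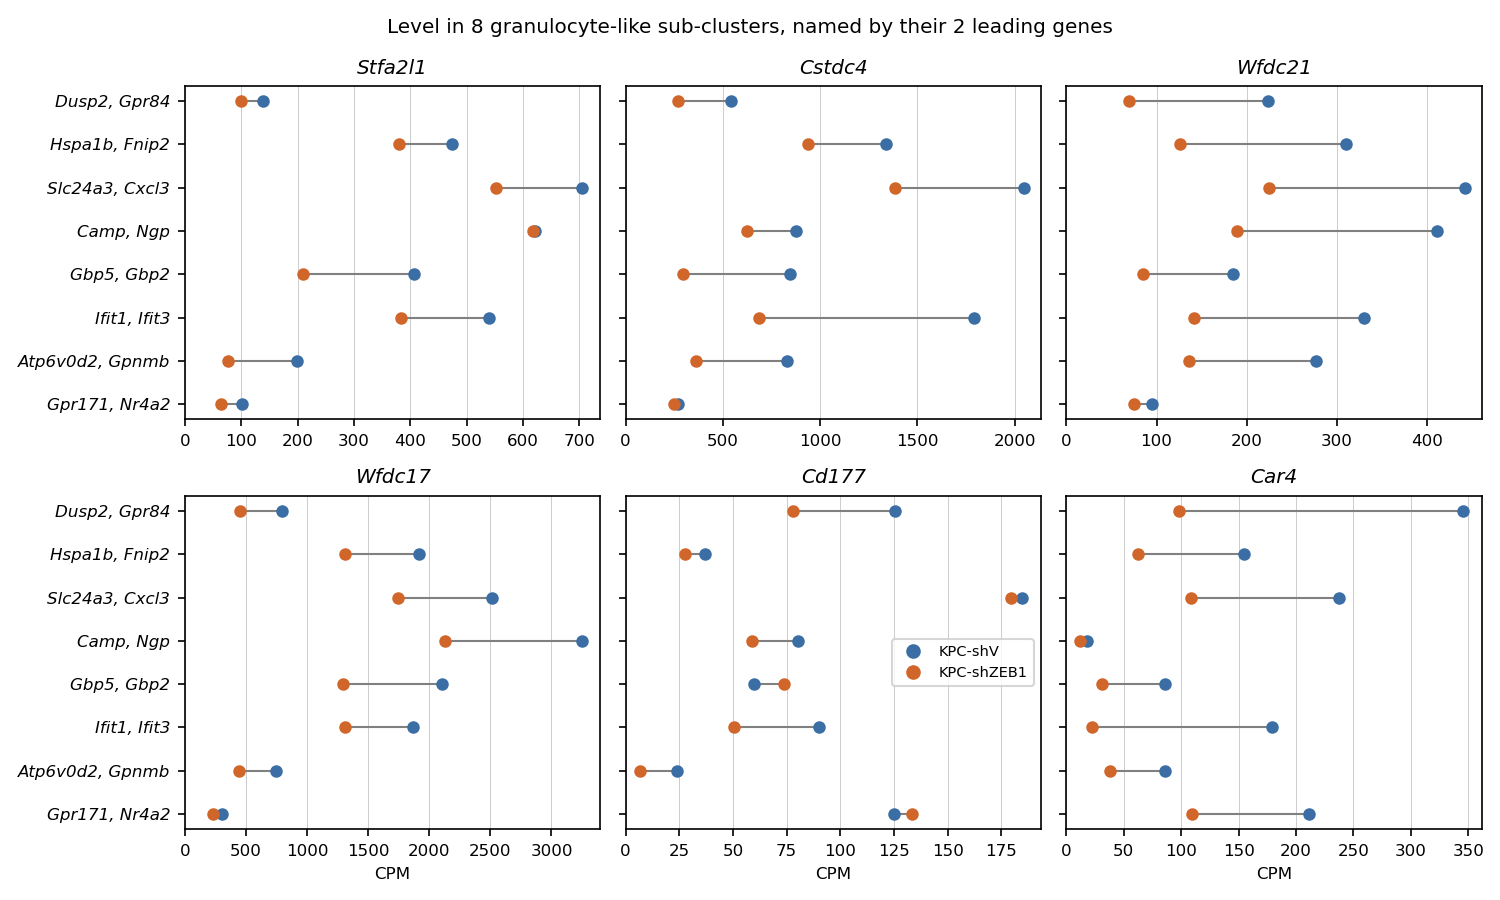
Level (CPM, linear axis) of 6 of the genes in the 8 granulocyte-like sub-clusters with at least 100 cells per library, in KPC-shV (blue) and KPC-shZEB1 (orange), joined by a line. Wfdc17 peaks in the Camp and Ngp sub-cluster (3249 and 2130 CPM), where Car4 is lowest (18.1 and 11.9 CPM), and only Cd177 of these 6 has orange points to the right of blue.

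Single neutrophils differed widely in these transcripts. The 10% of KPC-shV neutrophils with the most Cstdc4 held 56.8% of its UMIs, and the highest cell held 148. In KPC-shZEB1 the top 10% held 65.4%, and the highest cell held 71. After thinning to 1000 UMIs the variance of Cstdc4 over cells was 4.95 and 3.99 times the mean, and that of Wfdc17 5.21 and 3.94 times, where counting alone gives 1. Cd177 was at 1.30 and 1.22, but at thinned means of 0.099 and 0.088 UMIs, against 1.29 and 0.654 for Cstdc4. The measure rises with the mean, so it does not show Cd177 to be more even. The top 10% of neutrophils held 67.8% and 70.2% of the Cd177 UMIs.

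Car4 was in few cells and high in some of them. In KPC-shV 19.2% of neutrophils held a UMI of it, the positive cells averaged 3.57 UMIs, and the top 1% of neutrophils held 24.9% of all its UMIs. In KPC-shZEB1 8.91% held a UMI and the positive cells averaged 2.89. Stfa2 was rarer still, in 2.37% and 1.74% of neutrophils, yet its positive cells averaged 2.99 and 3.33 UMIs. For Wfdc21 the share of cells was 44.9% and 24.0%, and the mean of positive cells was 2.73 and 1.99 UMIs. Stfa3 was found in 0.686% and 0.342% of neutrophils, and its UMIs lay in under 1% of cells in each library.

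Stfa2l1 and Cstdc4 were found in the same neutrophils more often than independent detection would give. The genes were chosen with earlier results of these cells known, so this and the pairs below are a description only. With cells thinned to 1000 UMIs, Stfa2l1 and Cstdc4 were together in 929 KPC-shV cells, where 522 were expected from their separate shares, a ratio of 1.78 (1.67 to 1.90). In KPC-shZEB1 the count was 300 against 132 expected, a ratio of 2.28 (2.03 to 2.55). The rarer Stfa2 met Stfa2l1 in 44 and 13 cells against 14.7 and 4.37 expected, ratios of 3.00 (2.18 to 4.03) and 2.98 (1.58 to 5.09). Stfa2 met Cstdc4 in 51 and 10 cells, ratios of 2.12 (1.58 to 2.79) and 1.69 (0.808 to 3.10), so in KPC-shZEB1 the interval of that pair reached 1. Stretches shared between the transcripts of Stfa2 and Stfa2l1 were few, as given above, and 0 were shared between Stfa2l1 and Cstdc4.

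This pairing of Stfa2l1 and Cstdc4 was present within sub-clusters too. When the expected number was summed over the sub-clusters, the ratios were 1.64 (1.54 to 1.75) in KPC-shV and 2.00 (1.78 to 2.24) in KPC-shZEB1. The count was above expectation in 8 of 8 and 7 of 7 sub-clusters that expected at least 5 cells. Pearson's r of their log UMIs over cells was 0.43 and 0.42, over 5689 and 2928 cells that share a library, a tumour and a depth of 1000 UMIs.

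Wfdc17 and Car4 were the reverse. They were together in 291 KPC-shV cells against 342 expected, a ratio of 0.851 (0.756 to 0.955), and in 37 KPC-shZEB1 cells against 67.2 expected, a ratio of 0.550 (0.388 to 0.759). Within sub-clusters the ratios were 0.914 (0.812 to 1.02) and 0.628 (0.442 to 0.865), so in KPC-shV the interval then reached 1. Cstdc4 and Car4 were together more often than expected in both libraries, with ratios of 1.24 and 1.43. Wfdc21 and Wfdc17, the chromosome 11 neighbours, had ratios of 1.14 and 1.26.

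Over all 28 pairs the median ratio was 1.19 in KPC-shV and 1.39 in KPC-shZEB1, and the interval lay above 1 in 11 and 10 of the 28 pairs. The pairs share cells and genes and are not independent, and pairs of other genes were not set beside them. Pairs with Stfa3 rest on 11 or fewer cells and are not read further.

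**Figure D3:**
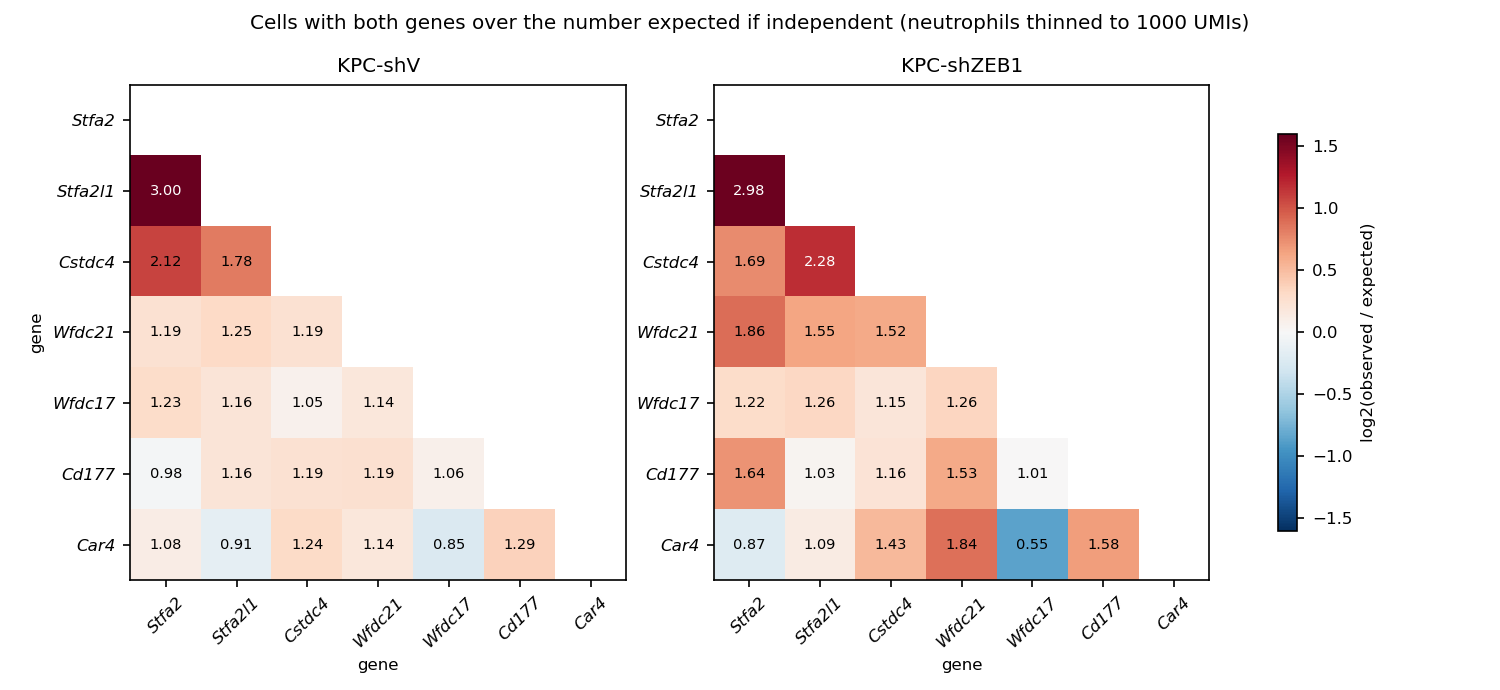
Number of neutrophils with both genes of a pair over the number expected if detection were independent, with cells thinned to 1000 UMIs, in KPC-shV (left) and KPC-shZEB1 (right); the colour is the log2 of the ratio and Stfa3 is left out. Stfa2 with Stfa2l1 is the reddest pair (3.00 and 2.98), and Wfdc17 with Car4 is the bluest (0.851 and 0.550).

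Counting genes per cell showed the same spread. In KPC-shV 17.4% of thinned neutrophils held none of the 8 genes, where independent detection gives 12.3%, and 5.92% held 4, where it gives 3.28%. In KPC-shZEB1 31.7% held none against 24.9%, and 1.91% held 4 against 0.806%. Cells with 2 of the genes were fewer than independence gives, at 26.3% against 34.1% and 20.2% against 24.7%. No neutrophil held all 8, also without thinning.

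**Figure D4:**
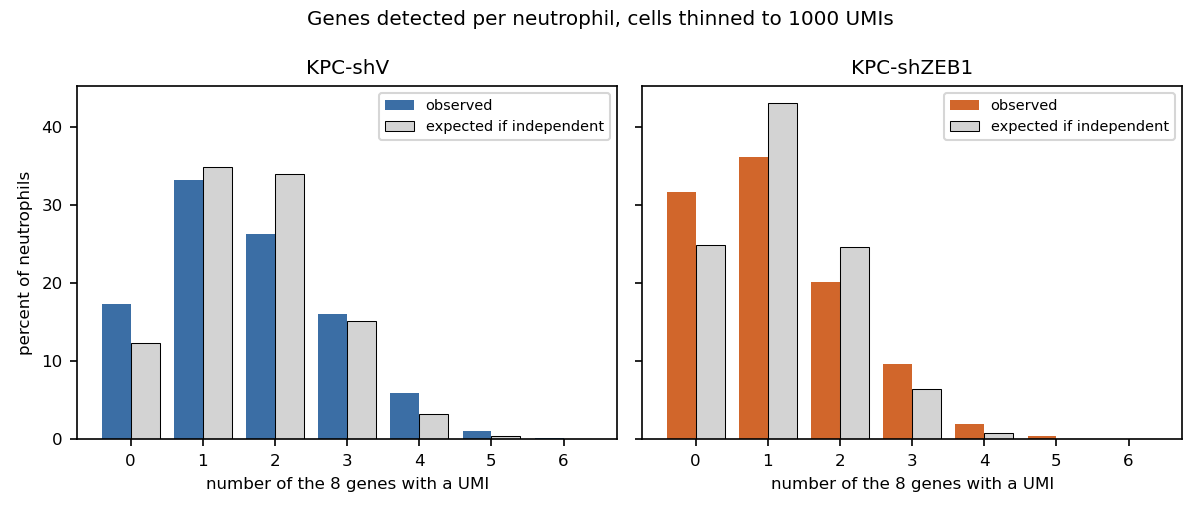
Percent of neutrophils by how many of the 8 genes had a UMI, cells thinned to 1000 UMIs (coloured bars), beside the percent expected if the genes were detected independently (grey bars), in KPC-shV and KPC-shZEB1. Cells with 0 genes exceed the grey bar in both libraries (17.4% against 12.3%, and 31.7% against 24.9%), as do cells with 4.

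Genes most like each member over neutrophils were ranked by the mean of Pearson's r in the libraries, among 2627 genes with at least 50 CPM in both. The 8 members themselves were left out of this ranking. The stefins led to each other's neighbour: Csta2, a stefin gene of the same run on chromosome 16, ranked first for Cstdc4 (mean r 0.28) and for Stfa2 (0.13) and second for Stfa2l1 (0.18). Csta2 shares stretches with Cstdc4, as given above, and the part of shared sequence in this likeness was not tested. For Cstdc4 the next genes were Cxcl3 (0.25) and Fam162a (0.24), a gene known to respond to low oxygen. Stfa2l1 had S100a9 (0.19) and S100a8 (0.18) as its others, and Stfa2 had Retnlg (0.09) and S100a8 (0.07). S100a8 and S100a9 also chose the cells.

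The highest r to a gene outside the 8 was that of Wfdc17 with Ifitm1 (0.33), below the r of Stfa2l1 with Cstdc4 given above. Wfdc17 next had the chemokine gene Ccl6 (0.31) and Retnlg (0.26). Wfdc21 went with S100a8 (0.22), Ccl6 (0.18) and S100a9 (0.18). For Car4 the first 3 were Il23a (0.10), Tnf (0.10) and Ccl3 (0.09), all genes of secreted inflammatory signals, and the gene least like it was Ifitm1, at -0.10. Cd177 had Ceacam10 (0.10), Slc24a3 (0.09) and G0s2 (0.09). Values near 0.1 in counts this sparse are weak and are given only as an order. Stfa3 had Atp6v1h, F10 and Ahi1, whose r was near 0 in KPC-shV, and no likeness is read for it.

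Other genes of the same families and processes were looked up from lists chosen by function. Of 10 symbols listed for other stefins and cystatins, 7 were in the files and 3 reached 50 CPM. The symbols not found were BC100530, Gm5483 and BC117090. Whether they are older names of genes counted here was not checked. Csta2 had a ratio of 0.573 (112 and 64.2 CPM) and Cstb, a stefin of most cells, a ratio of 0.529 (1035 and 547 CPM), both past the fold. Csta2 shares stretches with Cstdc4, as given above, and whether this ties their ratios was not tested. Cst3, a secreted cystatin strong in macrophages, was the other way, at 504 and 801 CPM, a ratio of 1.59. The stefins of chromosome 16 below 50 CPM were at 0.720 for Stfa1 and 0.574 for Cstdc5, and Csta3, added after its value was seen, was at 0.696. Cstdc6 had 8 and 5 UMIs, a ratio of 1.37 with an interval of 0.354 to 4.76, and Csta1, also added after its value was seen, had 1 UMI in each library, so no direction is read for either.

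Of 9 other whey acidic protein genes, 2 reached 50 CPM and neither passed the fold. The ratio of Slpi was 0.757, from 972 and 736 CPM, and that of Wfdc2 was 0.859, from 116 and 99.3 CPM. Of 10 cysteine cathepsins, the targets of stefins, 6 reached 50 CPM, 0 were lower and 1 was higher, Ctss, at 270 and 431 CPM, with a ratio of 1.598. Ctss was also among the 10 leading genes of the macrophage cluster led by Mmp12. The monocyte-macrophage markers within these neutrophils stood at 551 and 1071 CPM, as above, and their part in the ratios of Ctss and Cst3 was not tested. Ctsb stood at 682 and 619 CPM and Ctsl at 287 and 232 CPM. Of 5 genes of early neutrophil granules, 4 for serine proteases and Mpo for a peroxidase, none reached 50 CPM, and Prtn3, whose product binds Cd177, was at 13.8 and 17.8 CPM.

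Of the 3 partners of Cd177, Itgam (0.957) and Itgb2 (0.956) were within the fold and Pecam1 was past it, at 109.9 and 72.5 CPM, a ratio of 0.660. Pecam1 is also 1 of the 5 endothelial markers, and the other 4 summed to 25.8 and 9.15 CPM in these neutrophils. The part of endothelial transcripts in the Pecam1 ratio was not tested. None of 11 other carbonic anhydrases reached 50 CPM, the highest being Car2, at 9.59 and 13.5 CPM. Car4 was thus the only carbonic anhydrase of the list at that level in these neutrophils.

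Lists of neutrophil states moved less evenly. Of 9 genes named for tumour-resident neutrophils, 8 reached 50 CPM and 4 were lower, namely Ccl3 (0.637), Hilpda (0.577), Mreg (0.6002) and Ero1l (0.517). The other 4 at that level were within the fold, with ratios from 0.684 for Ndrg1 to 1.08 for Vegfa. Siglecf, below 50 CPM, was the other way, at 18.5 and 35.0 CPM, a ratio of 1.89 (1.63 to 2.19). Of 7 late granule genes 5 reached 50 CPM and 0 passed the fold in either direction. Of 5 genes of recent arrival 4 reached it, and 1, Il1r2, was higher, at 1.54. Of 5 interferon genes 4 reached it and 0 passed the fold. These counts are set beside the 2.47% and 5.36% of all genes and have no test.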

How the data were processed

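The 2 libraries of 10x Genomics Chromium 3' v3.1 single-cell RNA sequencing held 1 orthotopic KPC tumour each. Per the labels and file headers, the authors aligned reads and counted UMIs per gene and barcode with Cell Ranger (version 7.0.1, mm10), and the deposited values are raw counts. Whether intronic reads were counted is not given in the sources used here. Barcodes were kept by the study's limits, with 500 or more genes, a UMI total from 1000 to 60000 and a mitochondrial share of 15% or less. Barcodes with a Scrublet-type doublet score above 0.2 were removed (315 and 343). Depth was 130941086 and 143461224 UMIs over 12594 and 13271 barcodes.

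Cells of both libraries were clustered together without the 8 genes (principal components, Leiden, leidenalg 0.10.2) and clusters were named from marker lists. A rule leaving clusters with weak markers unnamed was added after the clusters were seen. UMIs were summed by class and library as CPM, with exact Poisson, Clopper-Pearson and conditional binomial 95% intervals. Log2 ratios used 1 CPM added, except with equal sub-cluster weights, and counts of genes past the 1.5-fold limit used ratios with nothing added. No test was run, because each group was 1 sample. Cells were thinned to 1000 UMIs for shares and co-detection. The named genes were the 8 members, the genes of the function lists, the 3 genes most like each member and the leading genes of sub-clusters. The members and lists were chosen with earlier results of these data known. Scripts were tested on simulated data. Positions came from GENCODE vM21 and promoters from RefSeq (GRCm38.p6), the build of the files. Python 3.11.15, NumPy 2.4.6 and SciPy 1.17.1 were used.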

Additional observations from a re-analysis of the deposited data

How the results depend on the processing

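The count of members lower by the fold was 4 of 8 and moved to 7 with granulocyte-like clusters in place of the marker share and to 2 with a 2-fold limit. The share of all genes past the fold is given above only for the marker share of 0.4% and the 1.5-fold limit. With 1 CPM added to both levels, 3 members in place of 4 and 6 in place of 7 were past the 1.5-fold limit. Under the other alternatives it was 4 or 5, and the count of higher members was 0 under every alternative run. Cd177 reversed to a log2 ratio of -0.149 in granulocyte-like clusters, -0.0615 for the mean over cells, -0.168 in thinned cells, -0.0057 without the top 1% of cells and -0.295 with equal sub-cluster weights. Stfa2 reversed to 0.014 at a marker share of at least 1%, but moved to -0.44 in thinned cells and to -0.63 without the top 1% of cells. Equal weights, leaving out the acinar-led sub-cluster and the added CPM were chosen after seeing the data. Over 16 settings, the ratio ran from 0.355 to 0.462 for Car4, 0.360 to 0.485 for Wfdc21 and 0.420 to 0.593 for Cstdc4. The share of member UMIs carried by neutrophils, 68.2% and 36.7%, was 66.4% and 36.0% over all barcodes of at least 200 UMIs, 73.3% and 41.1% at a marker share of 0.2%, 58.0% and 29.7% at 1%, and 71.9% and 42.5% in granulocyte-like clusters. The cause was not tested. No paired analysis was possible because each group was 1 tumour. Depth limits Stfa2 and Stfa3, at 403 and 170 and at 70 and 19 UMIs, and few cells held most of the Stfa2 UMIs.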
